A study of Homo sapiens with 8 samples.

Results

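The human chromosome that carries EGFR, chromosome 7, was examined in the bulk RNA-seq counts of 8 PC9 populations. Its members were the rows of the count table whose name, with hyphens written as dots, matches exactly 1 GENCODE symbol and whose gene lies on chromosome 7. There are 954 such rows among the 22664 rows that carry a symbol, 322 on the short arm (7p) and 632 on the long arm (7q). PC9 is a human non-small cell lung cancer line with a deletion in exon 19 of EGFR, which all 8 populations share. The populations are 3 versions of the line and 5 sublines, and each gave 1 library from untreated cells in RPMI medium with FBS at passage 8 to 10. PC9-VU was kept at Vanderbilt University, PC9-MGH was obtained separately, and PC9-BR1 was raised from PC9-VU by stepwise afatinib and carries EGFR T790M as well. DS3, DS6, DS7, DS8 and DS9 were each grown from 1 cell of nuclear-labelled PC9-VU, so each subline began as 1 clone. By the paper's account all 3 versions were given the nuclear label. From drug responses and simulations the paper concludes that DS8 holds more than 1 cell state.

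EGFR, a receptor tyrosine kinase of the epithelial cell surface, lies near the inner end of 7p, and the kinase genes MET and BRAF lie on 7q. Tumour cells often carry whole chromosomes or arms at uneven copy number, and RNA summed over many neighbouring genes tends to follow the number of copies, though regulation of single genes and dosage compensation blur the relation. The data hold RNA only. The copy number of chromosome 7 was not analysed here.

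The row names locate a region but do not identify the transcript that was counted. Rows at 0 in all 8 libraries include neighbours of rows with many counts, and the pattern of rows with and without counts followed exons some distance away from the named genes. On 7p, when the exons of the named genes were moved by 41000 bases towards the end of the long arm, 88.7% of the 71 rows averaging 50 counts or more overlapped an annotated protein-coding exon, against 13.6% of the 103 rows at 0. Unmoved, the values were 94.4% and 84.5%. An unmoved protein-coding gene overlaps its own exons, so these values cannot show whether the names separate counted rows from empty ones. On 7q the separation was widest at -345000 bases, in the opposite direction, with 76.2% of 122 rows against 21.9% of 228 rows. Unmoved, 98.4% and 88.2% of these rows overlapped an exon, with the same limit. Within 20 Mb blocks the distance was between 36000 and 41000 bases on 7p. On 7q it was between -761000 and -305000 bases beyond the first block. In that first block it could not be set (65000 bases, with almost as good a separation as far as -591000). Separation was also almost as good at 14000 bases in the first 7p block, and at -360000 bases in the 7q block that gave -761000. The search reached 1 Mb on either side, so larger displacements were not looked for, and the place of a window holds only as far as rows lie within that reach. No row is therefore read as the gene it is named for, EGFR included, and row names serve as landmarks.

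**Figure D1:**
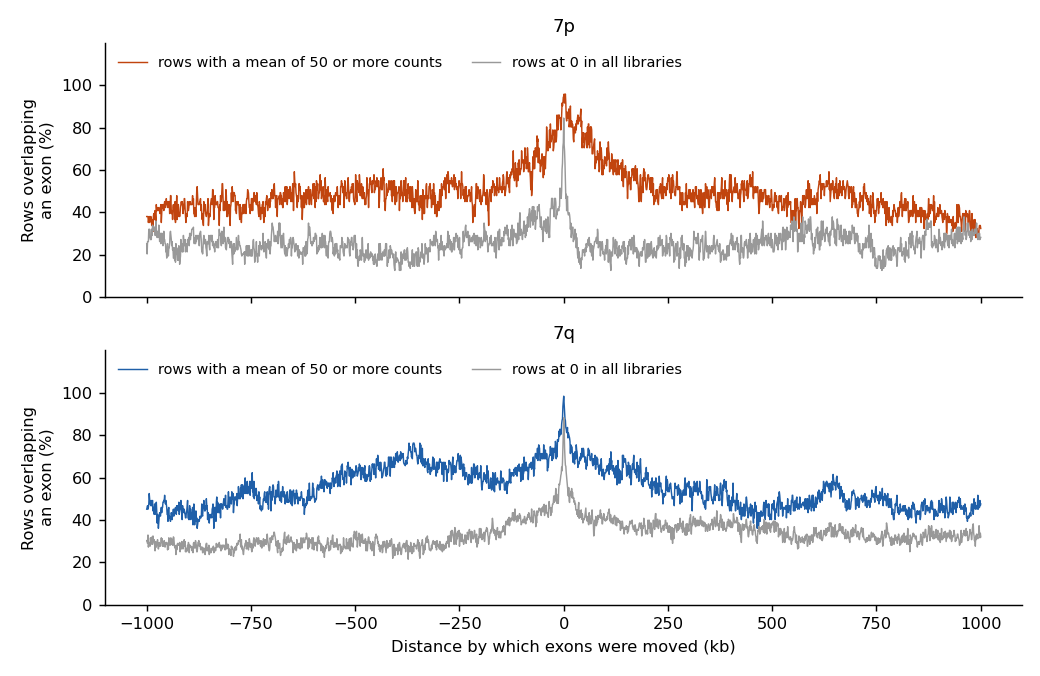
Share of 7p rows (top) and 7q rows (bottom) whose exons overlap an annotated protein-coding exon after the exons were moved by the distance on the x axis (kb). Coloured lines are rows averaging 50 counts or more and grey lines rows at 0 in all 8 libraries. The lines lie farthest apart at 41000 bases on 7p and -345000 bases on 7q, and close to 0 the grey lines come near the coloured ones. At 0 protein-coding genes overlap their own exons, so the lines are bound to meet there.

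Of the 954 members, 331 were at 0 in every library, 347 had a mean under 10 counts, 83 had a mean from 10 to below 50, and 193 had at least 50. These 193 rows, 71 on 7p and 122 on 7q, carry the medians that follow. They are 20.2% of the members, against 20.5% of all rows placed on chromosomes 1 to 22 and X, so chromosome 7 was neither richer nor poorer in counted rows. They lie between 0.193 and 56.1 Mb on 7p and between 73.4 and 159 Mb on 7q (hg38), leaving the middle of the chromosome without a counted row. The named rows of a library sum to between 2717355 and 3497722 counts. PC9-MGH and DS8 stood apart from the other libraries over all placed rows: PC9-MGH was the lowest of the 8 in 23.6% of them and the highest in 27.5%, and DS8 in 16.6% and 15.5%. With 1 library per population there is no test, and the 95% intervals below describe the spread between rows, not between cultures. Neighbouring rows can share reads, so they are not independent and the intervals may be too narrow.

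Levels are median log2 CPM over the rows of a region, and differences are the library minus the median of the other 7 libraries, taken row by row and then as the median over rows. A row is called above or below the other libraries by the sign of this difference. Over all placed rows these medians lay between -0.035 and 0.033, so the libraries were centred alike.

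The long arm separated the libraries into a lower group of DS6, DS7 and DS9 and a higher group of the remaining 5. The median level of the 122 rows was 5.19 in DS6, 5.11 in DS7 and 5.17 in DS9. It was 5.59 in PC9-VU, 5.73 in PC9-MGH, 5.65 in PC9-BR1, 5.67 in DS3 and 5.69 in DS8. The groups were formed from these values, so the gap between them is a description and not a test. The median difference from the other libraries was -0.37 in DS6 (interval -0.42 to -0.29), -0.44 in DS7 (-0.55 to -0.34) and -0.44 in DS9 (-0.50 to -0.38). The differences were spread over the arm's rows: 106 of 122 were below the other libraries in DS6 (51.3% of all placed rows), 104 in DS7 (51%) and 109 in DS9 (56%). In the other 5 libraries the median differences were 0.15 (PC9-VU), 0.17 (PC9-MGH), 0.21 (PC9-BR1), 0.20 (DS3) and 0.18 (DS8). These positive values depend on what they are set against, since DS6, DS7 and DS9 are among their 7 reference libraries. Against PC9-VU alone they were 0.025 in PC9-MGH, 0.043 in PC9-BR1, 0.033 in DS3 and 0.012 in DS8.

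Measured against PC9-VU, the line they were cloned from, 3 of the 5 sublines were lower on 7q and in 2 the interval spans 0. The median row of DS6 stood at 0.75 times that of PC9-VU (log2 difference -0.42, interval -0.49 to -0.35), with 105 of 122 rows lower, where 53.3% of all placed rows were. The ratio was 0.70 in DS7 (-0.51, -0.58 to -0.37), with 108 rows lower (53.9% of all placed rows), and 0.71 in DS9 (-0.49, -0.54 to -0.41), with 111 rows lower (57.1%). In DS3 the difference was 0.033 (-0.024 to 0.062) and in DS8 0.012 (-0.055 to 0.078), and both intervals span 0. PC9-MGH differed from PC9-VU by 0.025 (-0.050 to 0.13) and PC9-BR1 by 0.043 (-0.027 to 0.12). At least 2-fold below PC9-VU were 7 rows in DS6 (5.74%, against 1.3% of all placed rows), 10 in DS7 (8.20%, against 1.63%) and 7 in DS9 (5.74%, against 1.06%).

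The libraries were also put in order of their median difference on 7q, and each was compared only with its neighbour in that order. Within each 7q group no step between neighbours had an interval that excludes 0. DS7 differed from DS9 by -0.0029 (-0.10 to 0.097) and DS6 from DS7 by 0.061 (-0.031 to 0.13). The only step whose interval excludes 0 lay between DS6 and PC9-VU, at 0.42 (0.35 to 0.49). The order was set by the same rows, so this step was picked out by the values and is a description, not a test. The 4 steps above PC9-VU were between -0.027 and 0.025, each with an interval that spans 0.

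DS3 and DS8 were also compared with the remaining sublines. DS3 exceeded the mean of DS6, DS7 and DS9 on 7q by 0.52 (0.45 to 0.59), a ratio of 1.43, and was higher in 115 of 122 rows (53.4% of all placed rows). On 7p the same difference was 0.039 (-0.019 to 0.13), with 41 of 71 rows higher. DS3 was above each of DS6, DS7 and DS9 in 97 of the 122 rows of 7q and in 21 of the 71 rows of 7p, where 29.3% of all placed rows were. It was below each of them in 4 and 12 rows (26.3% of all placed rows). On 7q the count of 97 is above that background. DS6, DS7 and DS9 were grouped by their low 7q values, so this excess restates the grouping and adds no support to it. The 7p count is near the background.

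**Figure D2:**
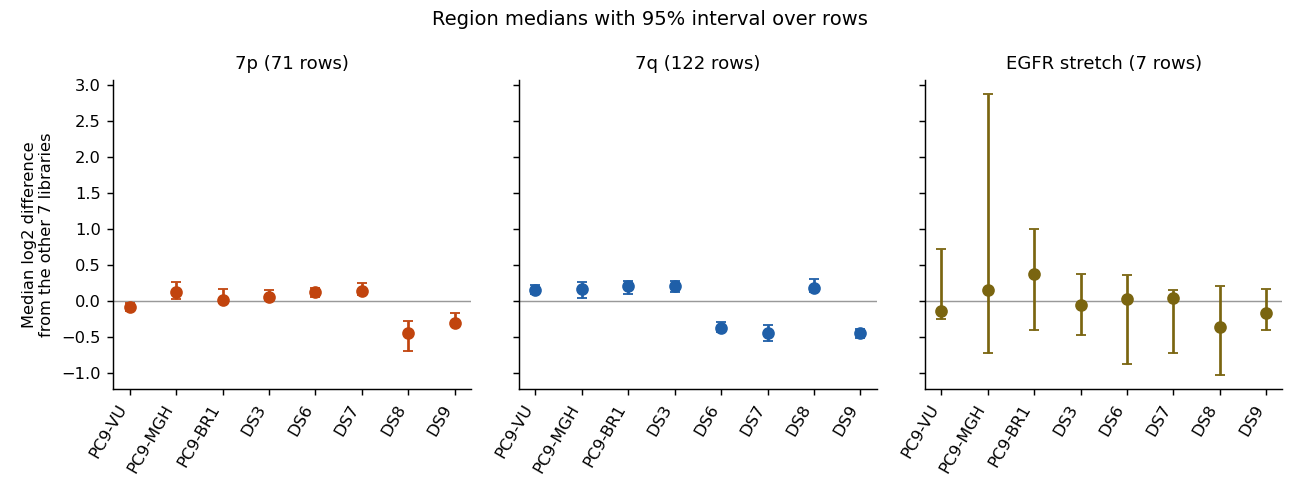
Median log2 difference of each library from the other 7 over the counted rows of 7p, of 7q and of the stretch around EGFR, with the 95% interval of the median over rows. DS8, DS9 and, at -0.076, PC9-VU lie below 0 on 7p, DS6, DS7 and DS9 lie below 0 on 7q, and over the 7 rows around EGFR every interval spans 0.

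The short arm gave another order. Its median level over 71 rows was 5.89 in DS8 and 6.20 in DS9, the lowest of the 8, against 6.31 in PC9-BR1, 6.37 in DS7, 6.38 in PC9-VU, 6.52 in DS3, 6.57 in DS6 and 6.61 in PC9-MGH. The median difference from the other libraries was -0.45 in DS8 (-0.70 to -0.27), with 58 of 71 rows below (50.6% of all placed rows), and -0.30 in DS9 (-0.32 to -0.17), with 61 rows below (56%). It was -0.076 in PC9-VU (-0.13 to -0.026), with 48 rows below (44.6% of all placed rows), 0.13 in PC9-MGH, 0.013 in PC9-BR1, 0.058 in DS3, 0.13 in DS6 and 0.14 in DS7. DS6 and DS7, which were low on 7q, were thus not low on 7p, DS8 was low on 7p alone, and DS9 was low on both arms.

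Against PC9-VU, the median row of 7p stood at 0.77 times in DS8 (-0.38, -0.56 to -0.23, lower in 54 of 71 rows and 52.4% of all placed rows) and 0.87 times in DS9 (-0.21, -0.27 to -0.10, lower in 52 rows and 57.1% of all placed rows). DS6 and DS7 were higher than PC9-VU by 0.17 (0.076 to 0.22) and 0.16 (0.12 to 0.21), DS3 by 0.082 (0.038 to 0.19) and PC9-MGH by 0.22 (0.12 to 0.31). PC9-BR1 was within 0.070 of PC9-VU (-0.020 to 0.20). All of these are set against the same PC9-VU library, whose own 7p median difference was -0.076, so they are not independent of each other. Between neighbours in the order, DS9 exceeded DS8 by 0.22 with an interval of -0.0089 to 0.40, and PC9-VU exceeded DS9 by 0.21 (0.10 to 0.27). No step above PC9-VU had an interval that excludes 0. As on 7q, the order was set by the same rows, so the steps are a description.

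DS8 was 0.38 below the mean of the other 4 sublines on 7p (difference -0.38, -0.60 to -0.27, lower in 57 of 71 rows and 49.4% of all placed rows) and 0.38 above it on 7q (0.30 to 0.44, higher in 107 of 122 rows and 50.6% of all placed rows). It was below each of the other 4 in 38 rows of 7p and 1 row of 7q (25.2% of all placed rows), and above each of them in 2 rows of 7p and 58 of 7q (25.7% of all placed rows). The mean that DS8 exceeded on 7q includes DS6, DS7 and DS9. Against PC9-VU, as given above, the interval of DS8 on that arm spans 0.

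The gap between the arms was also taken within a library, where a scaling factor common to all its rows cancels. The 7q median minus the 7p median was -0.50 in DS6 and -0.57 in DS7, and 0.63 in DS8. It was -0.15 in DS9, 0.23 in PC9-VU, 0.20 in PC9-BR1, 0.15 in DS3 and 0.044 in PC9-MGH. DS6 and DS7 thus had the lowest gaps and DS8 the highest, with opposite signs. These libraries were singled out by the values themselves. The gap depends on the reference: against PC9-VU it was 0.39 in DS8, -0.59 in DS6, -0.67 in DS7, -0.28 in DS9, -0.20 in PC9-MGH, -0.050 in DS3 and -0.028 in PC9-BR1.

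Without PC9-MGH and DS8 among the reference libraries, the 7q medians were -0.29 in DS6, -0.41 in DS7 and -0.43 in DS9, and the 7p medians were -0.48 in DS8 and -0.31 in DS9.

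Counts of rows at the extreme of the 8 libraries followed the medians. DS8 was the lowest in 33 of 71 rows on 7p, where 16.6% of all placed rows had DS8 lowest, and in 1 of 122 rows on 7q. DS9 was the lowest in 15 rows of 7p and 35 of 7q (11.6% of all placed rows), DS7 in 3 and 42 (11%), and DS6 in 2 and 25 (10.7%). On 7q the lowest library was thus one of these 3 sublines in most rows. DS3 was the lowest in 1 row of each arm (11.6% of all placed rows), PC9-VU in 2 and 0 (2.74%), PC9-BR1 in 4 and 9 (12.1%) and PC9-MGH in 11 and 9 (23.6%).

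At the upper extreme, DS7 was the highest in 18 of 71 rows of 7p against 10.9% of all placed rows, and in 2 of 122 rows of 7q. DS6 was the highest in 10 and 2 rows (9.65%), DS9 in 1 and 2 (7.53%) and DS8 in 1 and 24 (15.5%). PC9-VU was the highest in 1 and 13 rows (3.82%), PC9-BR1 in 4 and 22 (12.4%), DS3 in 10 and 18 (12.8%) and PC9-MGH in 26 and 39 (27.5%). On 7q all 5 libraries of the higher group had the highest value in a larger share of rows than over all placed rows, from 10.7% against 3.82% in PC9-VU to 14.8% against 12.8% in DS3. As DS6, DS7 and DS9 held few of the highest values on 7q, the other 5 had to exceed their background together. The larger shares thus restate the grouping and add no support to it. The exact intervals of the 7q shares include the background in PC9-BR1, PC9-MGH, DS3 and DS8.

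**Figure D3:**
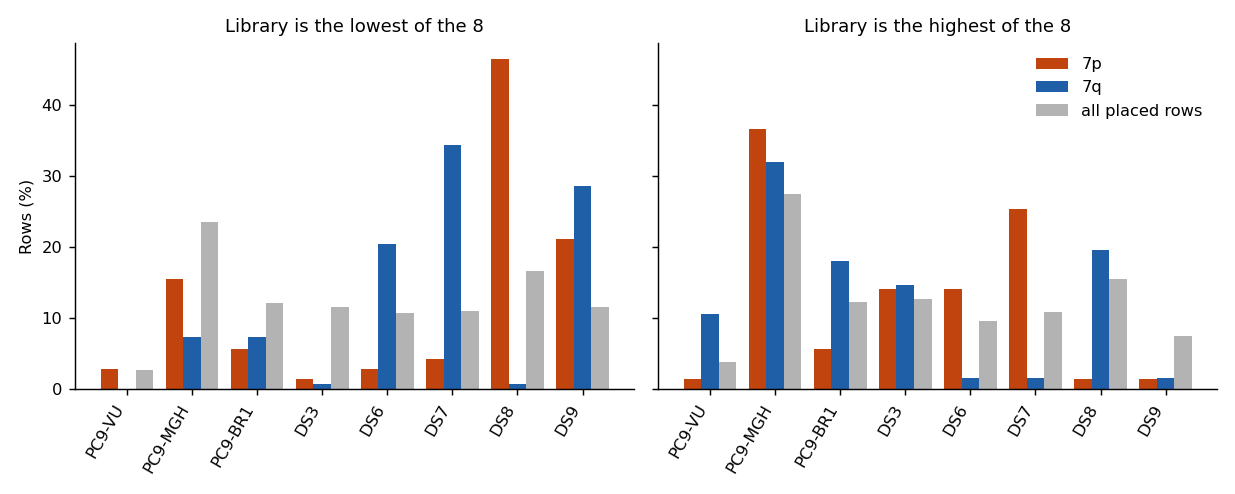
Percent of the 71 rows of 7p, the 122 rows of 7q and all placed rows in which a library has the lowest (left) or the highest (right) log2 CPM of the 8. DS8 is the tallest 7p bar among the lowest values, and DS7, DS9 and DS6 are the tallest 7q bars.

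Summed counts over all members, with no filter on low rows, were lowest in the same libraries. The 632 rows of 7q held between 37933 and 61555 counts. Their share of the counts of all named rows was 1.32% in DS6 (exact binomial interval 1.30% to 1.33%), 1.31% in DS7 (1.29% to 1.32%) and 1.25% in DS9 (1.24% to 1.26%). In PC9-VU it was 1.76%, in PC9-MGH 1.72%, in PC9-BR1 1.78%, in DS3 1.87% and in DS8 1.71%, and no interval of this group reached the first. These intervals cover counting error only, and PCR reads without molecular identifiers are not independent molecules. Rows named MUC17, CAPZA2 and NCF1 held 10.8%, 9.83% and 5.76% of the 7q counts. Left out, the shares were 0.960% in DS6, 0.947% in DS7 and 0.961% in DS9, against 1.28% to 1.32% in the other 5.

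The 322 rows of 7p held between 100151 and 143744 counts. Their share was 3.51% in DS8 (3.49% to 3.54%) and 3.69% in DS9 (3.67% to 3.71%), the lowest of the 8. It was 4.00% in PC9-VU, 4.46% in DS3, 4.49% in DS6, 4.50% in PC9-BR1, 4.58% in DS7 and 4.97% in PC9-MGH. Rows named FBXL18, ZMIZ2 and PSPH held 38.2%, 20.1% and 6.49% of these counts, so the total of the arm rests largely on a few rows. Left out, the share was 1.20% in DS8, 1.36% in DS9, 1.50% in PC9-VU and 1.57% to 1.64% in the other 5.

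Along 7q the lower level of DS6, DS7 and DS9 reached from the first counted row to the last. In 6 windows of 20 consecutive rows (22 in the last), in order of the position of the named genes, the medians of DS6 were -0.24, -0.45, -0.43, -0.31, -0.39 and -0.28. Those of DS7 were -0.28, -0.56, -0.48, -0.57, -0.45 and -0.22. Those of DS9 were -0.46, -0.45, -0.49, -0.39, -0.54 and -0.34. The first window runs from the row named BAZ1B to that named SRI (chr7:73440406-88226993) and the last from HIPK2 to VIPR2 (chr7:139561570-159144867). All 18 medians were at -0.22 or below. The interval spans 0 in 2 of them, the window from STEAP4 to CYP3A7 in DS6 (-0.59 to 0.0034) and that from CFTR to KLRG2 in DS7 (-0.63 to 0.032). In the window from CYP3A4 to ZNHIT1 (chr7:99756960-101224190), all 20 rows were below the other libraries in DS6 and in DS7, and 18 in DS9. That window spans less than 2 Mb, so a displacement of the size found on this arm is a larger part of it than of the other windows.

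In windows of 20 or more rows the short-arm deficit of DS8 was graded along the arm. The window from FAM20C to RSPH10B (chr7:192571-5970689) had a median of -0.032 (-0.21 to 0.11), with 11 of 20 rows below. The window from PMS2 to NFE2L3 (chr7:5970925-26187137) had -0.38 (-0.70 to -0.20), with 18 of 20 below, and the window from HOXA.AS2 to PSPH (chr7:27107777-56051604) had -0.80 (-0.94 to -0.67), with 29 of 31 below. At the tip of 7p the interval of DS8 spans 0, and in the inner windows it does not. Median levels in the inner window were 5.51 in DS8 against 5.99 in DS9, 5.999 in DS3, 6.07 in PC9-VU, 6.23 in DS7, 6.26 in DS6, 6.31 in PC9-BR1 and 6.61 in PC9-MGH. Against PC9-VU the 3 windows of DS8 gave 0.013, -0.40 and -0.72.

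Windows of 10 rows placed the fall in DS8 more closely. Their medians were 0.083, -0.14, -0.24, -0.70, -0.79, -0.99 and -0.50 from the tip inwards. The fall was not steady: the innermost window stood higher than the one before it, and the intervals of the first 3 span 0. The first 3 windows end at 8.09 Mb and the next begins at the row named PHF14, at 10.97 Mb. In that window and the one after it 10 of 10 rows were below the other libraries. The window from FAM183BP to ZMIZ2 (38.7 to 44.8 Mb) was the lowest, with 9 of 10 rows below, and the innermost, from PPIA to PSPH, holds the 7 rows around EGFR.

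The base composition of 7p changes along with this gradient. The median GC content within 250000 bases on either side of the named genes was 53.4%, 41.5% and 43.7% in the 3 windows. In DS8 the 35 rows of higher GC content had a median of -0.14 and the 36 of lower content one of -0.71, so GC content and position move together, and their parts in the gradient were not tested apart beyond the correction that follows. After a lowess correction for GC content fitted over all placed rows, which was chosen for the windows after these values were seen, the 3 windows of DS8 stood at -0.0049, -0.36 and -0.79. On 7q the higher and lower parts by GC content gave -0.38 and -0.35 in DS6, -0.43 and -0.45 in DS7, and -0.40 and -0.50 in DS9.

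DS9 was low in all 3 windows of 7p, at -0.31, -0.20 and -0.35, with no gradient of the kind seen in DS8. PC9-MGH ran the opposite way to DS8, at -0.14 (-0.26 to 0.13), 0.10 (-0.07 to 0.65) and 0.37 (0.16 to 0.61), and after the GC correction at -0.17, 0.10 and 0.42. PC9-BR1 had -0.13, -0.021 and 0.20 (0.11 to 0.37), with 5 of 31 rows of the inner window below the other libraries (50.4% of all placed rows). DS6 and DS7 were between 0.09 and 0.18 in the 3 windows, and DS3 between 0.04 and 0.21.

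Along 7q the medians of PC9-BR1 in the 6 windows were 0.21, 0.24, 0.27, 0.24, 0.23 and -0.13, the last with an interval of -0.35 to 0.26. In windows of 10 rows 2 of 12 had medians below 0. One was the window from HIP1 to SRI, at -0.12 (-0.52 to 0.37), with 8 of 10 rows below (50.4% of all placed rows) and -0.22 against PC9-VU. The other was the last, from GIMAP6 to VIPR2 (150.6 to 159.1 Mb), at -0.29 (-0.52 to -0.034), with 10 of 12 rows below, after 0.25 in the window before it. Against PC9-VU the last window gave -0.38 and the one before it 0.16. No other library changed sign between the last 2 windows of 10 rows on 7q. Such changes were not particular to this place: PC9-MGH had 0.13 and -0.11 in the first 2 windows of 10 rows on 7q. The last window of PC9-BR1 was singled out by its values.

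**Figure D4:**
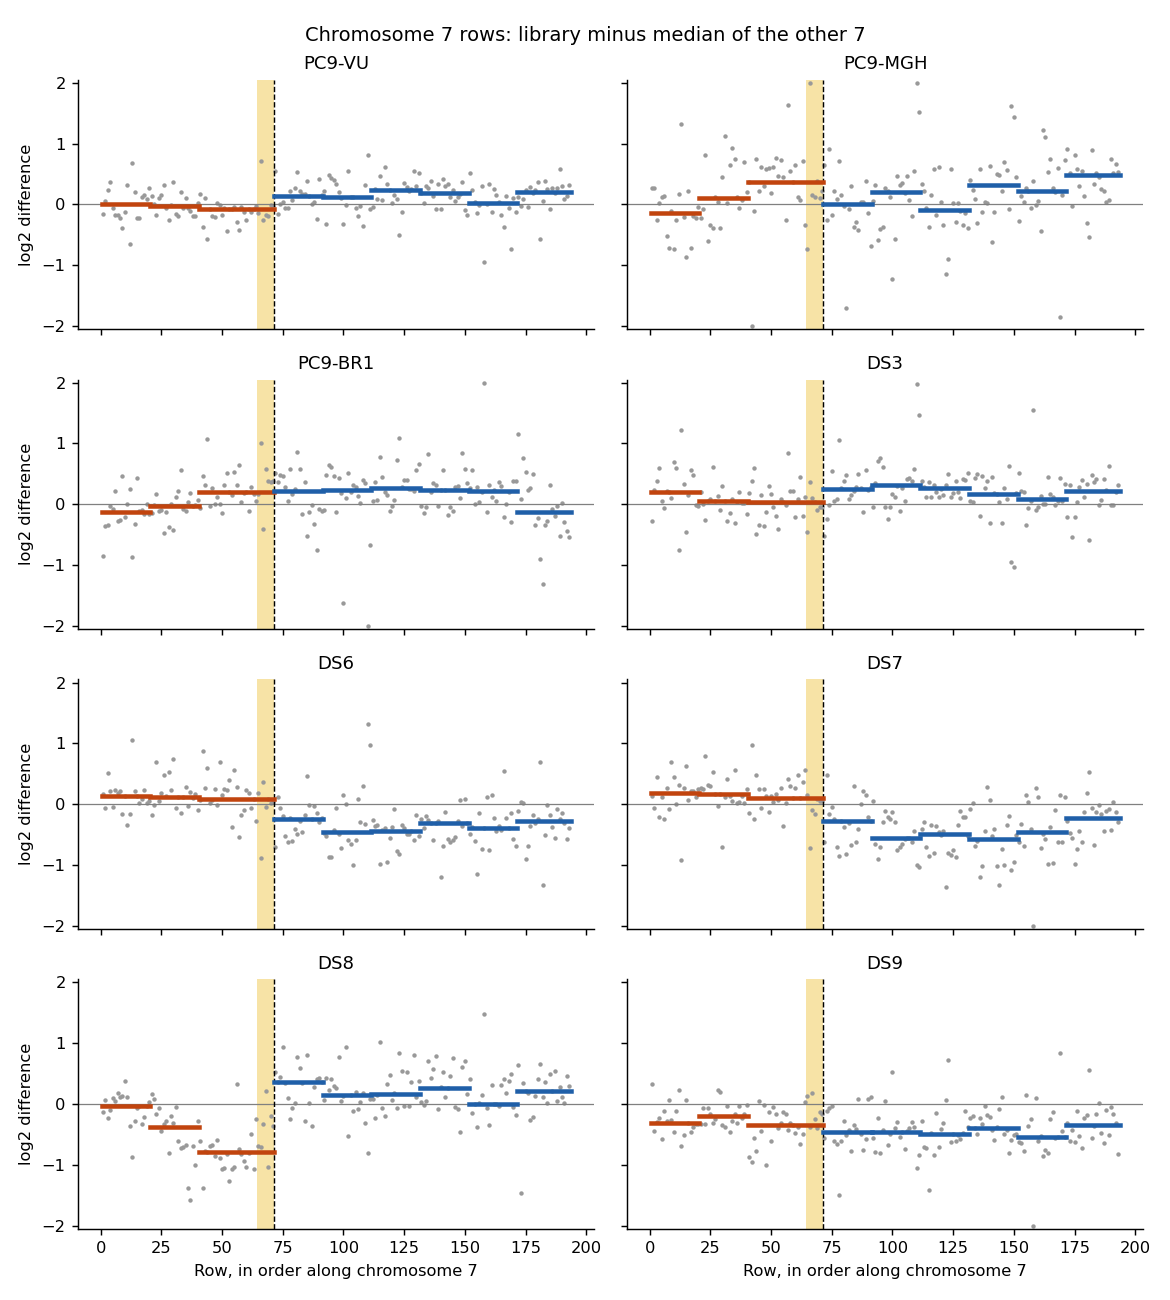
Each of the 193 counted rows (grey points) in order along chromosome 7, as the log2 difference of a library from the median of the other 7, with the medians of windows of 20 or more rows as bars (7p orange, 7q blue). The dashed line marks the border of the arms, the yellow band the 7 rows around EGFR, and points beyond 2 are drawn at 2. The bars of DS6 and DS7 step down at the border, those of DS8 step up, and those of DS9 lie below 0 throughout.

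The stretch around EGFR was taken as the 7p rows named for genes whose midpoints lie within 5 Mb of that of EGFR (chr7:55019017-55211628). It holds 29 members from 50.1 to 57.5 Mb, of which 12 were at 0 in every library and 7 averaged 50 counts or more. The level of these 7 rows was 6.45 in PC9-VU, 6.69 in PC9-MGH, 7.16 in PC9-BR1, 6.62 in DS3, 6.57 in DS6, 6.45 in DS7, 6.78 in DS8 and 6.37 in DS9. The median difference was highest in PC9-BR1, at 0.38, with 1 of 7 rows below the other libraries (50.4% of all placed rows). It was lowest in DS8, at -0.36, with 6 of 7 rows below (50.6% of all placed rows). PC9-MGH also had 1 row below (47.2% of all placed rows) and PC9-VU had 6 (44.6%). These row counts therefore do not set PC9-BR1 or DS8 apart. With 7 rows the interval of the median is their whole range, -0.41 to 0.9998 in PC9-BR1 and -1.03 to 0.21 in DS8, so neither is set apart from 0. PC9-MGH had 0.16, DS7 0.048, DS6 0.031, DS3 -0.047, PC9-VU -0.13 and DS9 -0.17, each with an interval that spans 0. The level and the difference disagree for DS8, whose median level was above that of 6 other libraries, each being the median of 7 rows of very uneven level.

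The EGFR stretch lay on the same side of 0 as the inner window of 7p that includes it in all libraries but DS3. In DS8 the 7 rows were at -0.36 and the window of 31 rows that includes them at -0.80, and in PC9-BR1 the values were 0.38 and 0.20. Against PC9-VU the stretch gave 0.37 in PC9-BR1 (-0.15 to 0.71), 0.25 in PC9-MGH (-0.59 to 2.15) and -0.33 in DS8 (-1.06 to 0.33). The other sublines lay closer, at -0.020 in DS3, 0.13 in DS6, 0.056 in DS7 and -0.11 in DS9. DS8 was below each of the other 4 sublines in 5 of 7 rows (25.2% of all placed rows). It was the lowest of the 8 in 3 rows (16.6% of all placed rows), and PC9-BR1 was the highest in 3 (12.4%). For both counts of 3 rows the exact interval of the share, 9.90% to 81.6%, includes the background. For the count of 5 rows it is 29.0% to 96.3%, which lies above the background of 25.2%. The 7 rows are neighbours and may share reads, so this interval may be too narrow.

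By total counts the stretch made up 0.692% of PC9-BR1 (0.682% to 0.702%) and 0.457% of DS8 (0.450% to 0.465%), the highest and lowest of the 8. The other shares were 0.607% in PC9-MGH, 0.581% in DS6, 0.558% in DS7, 0.545% in PC9-VU, 0.541% in DS3 and 0.534% in DS9. Rows named PSPH, NIPSNAP2 and EGFR held 49.1%, 31.6% and 14.3% of these counts, so the shares describe 3 rows. The row named EGFR had between 1770 and 3050 counts per library, and which transcript they come from is not known.

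Among the 40 chromosome arms with at least 20 counted rows, 7q had the lowest median in DS6 and in DS7, and only 13q (-0.46) was lower than 7q in DS9. 7p had rank 2 from the lowest in DS8, after 13q at -0.48, and rank 4 in DS9. In PC9-VU 7p was the lowest arm, at only -0.076, and in that library all arms lay within -0.076 and 0.26. Towards the other end, 7q had rank 3 from the highest in PC9-VU, 4 in DS3, 5 in PC9-BR1, 7 in PC9-MGH and 8 in DS8.

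**Figure D5:**
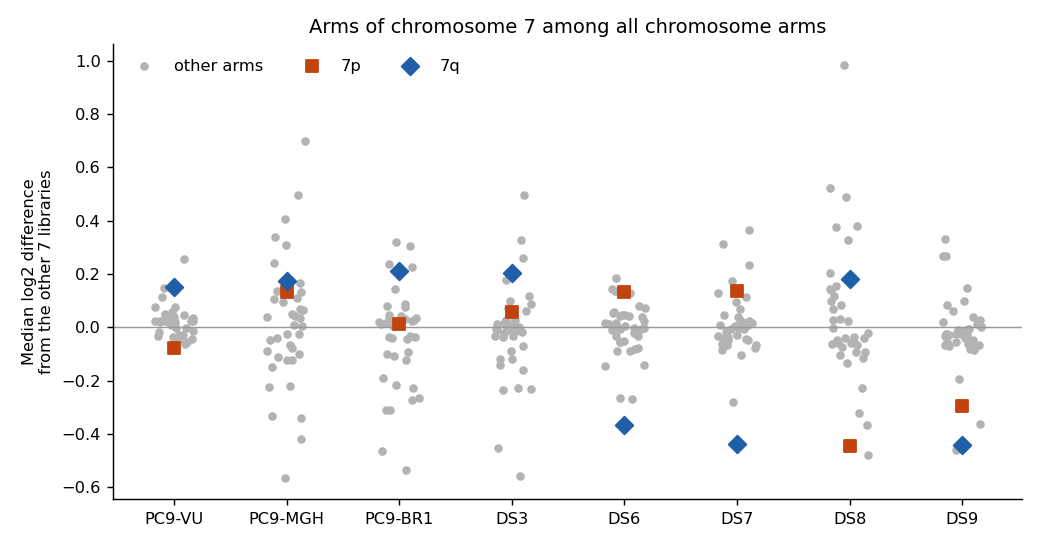
Median log2 difference of each library from the other 7 for the 40 chromosome arms with at least 20 counted rows (grey points), with 7p as squares and 7q as diamonds. 7q is the lowest point in DS6 and DS7 and next to the lowest in DS9, and 7p is next to the lowest in DS8.

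Windows of 20 rows on the other chromosomes gave the scale for windows on chromosome 7. Of 198 such windows, none was as low in DS7 as its lowest window on chromosome 7 (-0.57) and none as low in DS9 (-0.54). In DS8 1 window was as low as -0.80, and in DS6 3 were as low as -0.45. For PC9-VU, PC9-BR1, PC9-MGH and DS3 the numbers were 12, 36, 52 and 136, so their lowest windows on chromosome 7 had counterparts elsewhere in the genome.

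The 7q medians of DS6, DS7 and DS9 were below 0 in rows of high and low counts and on both strands of the named genes. In 3 nearly equal parts of the rows by mean counts, from highest to lowest, DS6 had -0.39, -0.33 and -0.32, DS7 -0.34, -0.48 and -0.57, and DS9 -0.47, -0.44 and -0.43. For rows named for genes on the minus and plus strands the medians were -0.31 and -0.39 in DS6, -0.34 and -0.52 in DS7, and -0.43 and -0.49 in DS9. On 7p these parts gave, in DS8, -0.33, -0.69 and -0.43, and in DS9 -0.31, -0.25 and -0.31, while the strands gave -0.50 and -0.40 in DS8.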

How the data were processed

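Bulk RNA-seq libraries of 8 PC9 populations, 1 each, were analysed. The authors prepared libraries from total RNA with rRNA depletion and poly-A selection. The submitters' processing notes name STAR (2.5.2b), featureCounts (1.6.4) of the Subread package and hg38, and the authors deposited raw counts per row, not normalized, in 1 table of 30988 rows. Rows without a symbol (8324) were left out. The strand setting and the handling of reads shared by several genes are not given in the sources used here.

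Of the 22664 named rows, 22214 match exactly 1 symbol of GENCODE release 44 (hg38) and 450 do not. Log2 CPM values were computed from the counts with edgeR (4.0.16, R 4.3.3), using TMM factors over all named rows and a prior count of 2, and compared where a row averaged 50 counts or more. The border of the arms was set at 60.1 Mb. For each region the median over rows of the difference from the row median of the other 7 libraries is given, with its exact binomial 95% interval, which covers the spread between rows. Totals carry exact Poisson and Clopper-Pearson intervals for counting error. No test was made, since no population has a replicate. The named genes are never read as genes: only the first and last rows of a window or stretch and rows holding over 5% of the counts of a region are named, as landmarks. The regions, comparisons and this rule were chosen with earlier results of these data known. The scripts were tested on simulated data.

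Alternatives covered the filter on low rows, the scaling (DESeq2 1.42.0 size factors, library totals, TMM without chromosome 7), the prior count, the reference, the summary over rows, depth, older symbols, GC content, the width of the EGFR stretch and the window size.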

Additional observations from a re-analysis of the deposited data

How the results depend on the processing

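No paired analysis was possible because each population has 1 library. Of 688 values under an alternative, 22 had the opposite sign to the reported value, in 12 results, and in each of these the reported interval spans 0. No value whose interval excludes 0 changed sign. Of 325 values of a library against the others 21 moved outside their interval over rows, of 315 pair values 9 did, and of 48 window values 3 did. Under DESeq2 size factors, library totals, TMM factors without chromosome 7, a prior count of 0.5, a minimum mean of 10 counts, thinning, older symbols, GC correction and other widths of the EGFR stretch no value moved so far, nor did the window values with GC correction, an alternative chosen after seeing the data.

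Most moves came without a filter on low rows, which by its construction adds rows of few counts. The 7p values were then 0.00 in PC9-VU, 0.030 in PC9-MGH, 0.056 in DS7, -0.24 in DS8 and -0.050 in DS9. The 7q values were 0.022 in PC9-VU, 0.00 in PC9-MGH, 0.024 in PC9-BR1, 0.068 in DS3, -0.011 in DS6, -0.067 in DS7, 0.0011 in DS8 and -0.039 in DS9. Against PC9-VU, 7p gave 0.072 in PC9-MGH, 0.097 in DS7 and -0.014 in DS9, and 7q gave -0.19 in DS6, -0.29 in DS7 and -0.30 in DS9. On 7q DS8 minus the other 4 sublines was 0.14 and DS3 minus the other 3 was 0.24.

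With PC9-VU alone as reference, 7q was 0.025 in PC9-MGH, 0.043 in PC9-BR1, 0.033 in DS3 and 0.012 in DS8. With the reference without PC9-MGH and DS8 it was 0.33 in PC9-VU, 0.35 in PC9-BR1 and 0.38 in DS3, since DS6, DS7 and DS9 then form most of the reference. With a minimum mean of 200 counts 7q in PC9-BR1 was 0.062, and with a mean over rows DS3 minus PC9-VU on 7q was 0.074; the cause was not tested. In windows of 10 rows the highest window of DS6 was 0.23 and the lowest of DS8 -0.99, and in windows of 40 rows, where 7p is a single window, the lowest of DS8 was -0.45.

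With 1 library per population, differences between populations and between cultures of 1 population cannot be told apart. Row positions are uncertain, which limits narrow windows. The distance found was 41000 bases on 7p and a large part of a Mb on 7q, and displacements beyond 1 Mb were not looked for. The 7 counted rows around EGFR allow no finer statement there.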
